A study of Homo sapiens with 4 samples.

Results

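The 7 genes described here encode the fork head factors FOXA1, FOXA2 and FOXA3 and the CCAAT/enhancer-binding proteins CEBPA, CEBPB, CEBPG and CEBPD. They were taken by name, each with 100000 bp on either side of the gene, out of 19974 protein-coding genes on chromosomes 1 to 22 and X. Within these windows the positions and scores of 3 histone marks were read from chromatin immunoprecipitation sequencing (ChIP-seq) of MHCC97L, an established human hepatocellular carcinoma cell line (genotype WT, untreated). The marks were trimethylation of histone H3 at lysine 4 (H3K4me3, found at promoters), acetylation at lysine 27 (H3K27ac, found at active promoters and enhancers) and monomethylation at lysine 4 (H3K4me1, found at enhancers and promoter flanks). Each mark had 1 library, and an input library was not analysed here. There are no replicates and the read depth is unknown, so the values describe these 3 libraries of 1 cell line and no difference was tested.

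FOXA proteins are called pioneer factors because they bind their sites in compact chromatin and help other factors reach liver enhancers. C/EBP proteins bind DNA as dimers through a basic region and a leucine zipper, and often share enhancers with FOXA proteins in hepatocytes. CEBPA maintains the differentiated, slowly dividing hepatocyte, CEBPB and CEBPD drive acute-phase genes after inflammatory signals, and CEBPG is a short dimer partner without a strong activation domain.

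The deposited lists hold 1 position per peak, the summit, with a score on the −log10 scale, from p-values or q-values. Scores rank summits within a list and are no measure of signal between marks. On the chromosomes used there were 46078 H3K4me3, 70028 H3K27ac and 86366 H3K4me1 summits, with median scores of 8.23, 8.40 and 4.58. Of the hepatocyte marker genes 6 of 12 had H3K4me3 within 1000 bp of the start and 4 of 12 had no summit of any mark at the gene, ALB and TTR among them, against 55.4% and 5127 of 19974 over all protein-coding genes. H3K4me3 was at the start of 3 of 4 epithelial markers. The keratin genes KRT8 and KRT18 shared a score of 107 and CDH1 had 17.7, while EPCAM had no summit of any mark at the gene. H3K4me3 was at the start of 1 of 4 endothelial, 1 of 4 immune and 0 of 4 stellate and fibroblast markers. In the gene or within 1000 bp, H3K27ac was found in 2, 2 and 1 of these, against 64.5% of all protein-coding genes. No summit of any mark was at the gene in 1, 2 and 3 of them. The endothelial gene PECAM1 had 14 H3K27ac summits at the gene and a score of 43.9 at the start. The immune gene PTPRC had 6 at the gene, with a best score of 38.8, and none at the start.

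The windows of the 7 genes held 58 H3K4me3, 124 H3K27ac and 151 H3K4me1 summits. CEBPA and CEBPG are neighbours on chromosome 19, with starts 71175 bp apart, and their windows share 7, 19 and 26 of these summits, each counted once in the totals.

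The promoter letters are shown first, because the summits below are placed relative to these starts. They come from RefSeq on GRCh38.p14, which matched 5 of the 7 genes, and cover the 250 bases before the RefSeq start of each gene, 5′ to 3′. The intervals are chr14:37595250-37595499 for FOXA1 (minus strand), chr19:45864076-45864325 for FOXA3 (plus), chr19:33302535-33302784 for CEBPA (minus), chr20:50190333-50190582 for CEBPB (plus) and chr19:33373459-33373708 for CEBPG (plus). Capitals mark the GC box, the CCAAT box and the TATA box on either strand.
FOXA1: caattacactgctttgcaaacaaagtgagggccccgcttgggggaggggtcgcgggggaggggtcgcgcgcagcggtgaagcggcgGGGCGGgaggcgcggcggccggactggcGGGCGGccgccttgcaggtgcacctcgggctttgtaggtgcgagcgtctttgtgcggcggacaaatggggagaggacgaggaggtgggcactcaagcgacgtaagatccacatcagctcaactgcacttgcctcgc
FOXA3: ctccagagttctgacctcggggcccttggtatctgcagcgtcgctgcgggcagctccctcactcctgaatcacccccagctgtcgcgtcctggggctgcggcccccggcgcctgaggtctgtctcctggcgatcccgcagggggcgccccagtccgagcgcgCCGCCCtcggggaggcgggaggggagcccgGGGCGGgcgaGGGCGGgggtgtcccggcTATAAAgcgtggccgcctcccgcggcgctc
CEBPA: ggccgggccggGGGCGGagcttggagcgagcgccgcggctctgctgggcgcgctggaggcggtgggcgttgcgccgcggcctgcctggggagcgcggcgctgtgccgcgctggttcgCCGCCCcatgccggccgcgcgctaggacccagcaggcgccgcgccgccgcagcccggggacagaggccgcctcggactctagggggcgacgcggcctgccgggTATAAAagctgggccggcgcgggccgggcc
CEBPB: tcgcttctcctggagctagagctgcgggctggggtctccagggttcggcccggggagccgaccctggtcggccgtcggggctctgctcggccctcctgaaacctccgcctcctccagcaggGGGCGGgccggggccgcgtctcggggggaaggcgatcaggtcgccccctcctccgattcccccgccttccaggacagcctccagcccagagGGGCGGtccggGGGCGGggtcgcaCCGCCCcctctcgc
CEBPG: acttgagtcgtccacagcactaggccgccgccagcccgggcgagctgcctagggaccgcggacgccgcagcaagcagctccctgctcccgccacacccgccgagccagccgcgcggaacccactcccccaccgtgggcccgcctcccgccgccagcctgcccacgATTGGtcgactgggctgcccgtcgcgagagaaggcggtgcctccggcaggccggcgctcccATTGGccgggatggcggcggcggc

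All 5 sequences are rich in G and C, from 67.2% in FOXA1 to 81.2% in CEBPA, against a median of 62.4% over 13790 protein-coding promoters of the same length. The ratio of observed to expected CpG was 1.01 in CEBPA, 0.977 in FOXA1, 0.901 in CEBPG, 0.792 in FOXA3 and 0.701 in CEBPB, so that only CEBPB of the 5 lay under the median of 0.741. CEBPA and FOXA3 each hold a TATA box (TATAAA) whose first base lies 30 bases before the start, a motif found anywhere in the window in 9.64% of the promoters. CEBPG holds 2 CCAAT boxes on the reverse strand, 85 and 24 bases before its start, and is the only one of the 5 with that motif, which 35.2% of promoters hold. The other 4 hold 2 to 4 GC boxes (GGGCGG), which 56.0% of promoters hold. The fork head letters TNTTTAC and the C/EBP letters TTGCNNAA, searched on both strands, occur in none of the 5 and in 7.22% and 7.36% of all promoters. Only these letters were searched, so other forms of fork head and C/EBP sites are not covered. The E-box CACGTG and the letters TGACG, part of the cyclic AMP response element, were also in none of the 5, against 7.87% and 26.1%. The matches do not overlap each other, and they describe letters in this window, not binding.

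At the genes themselves, H3K4me3 was found in or within 1000 bp of every gene except FOXA3, and H3K27ac at all 7. The counts are 6 of 7 for H3K4me3, against 69% of all protein-coding genes, and 7 of 7 for H3K27ac, against 64.5%. H3K4me1 was found in 4 of 7, against 40.4%, and H3K4me3 with H3K27ac in 6 of 7, against 61.2%. In the narrower window of 1000 bp around the RefSeq start, 4 of 7 genes had H3K4me3 (55.4% of all genes), 7 had H3K27ac (52.5%), 2 had H3K4me1 (6.93%), and 3 had H3K4me3 and H3K27ac at the same start (46.5%). CEBPD is not among the 3, because its H3K4me3 and H3K27ac summits lie at opposite ends of the gene. For FOXA2 and CEBPD both ends of the gene were taken, as for other genes without a strand in the promoter table, which gives them more places to meet the rule. The H3K27ac and H3K4me1 calls of FOXA2 and the H3K4me3 call of CEBPD rest on the lower-coordinate end alone. The H3K27ac call of CEBPD rests on the higher-coordinate end alone. Which of these ends are starts is not known here, and the counts of 4, 7 and 2 depend on them. The H3K4me3 and pair counts at the start are near the shares over all genes. That FOXA3 alone lacks H3K4me3 holds for the gene with 1000 bp around it. Measured from the start, the nearest H3K4me3 summit was closer in FOXA3, at 1526 bp, than in CEBPB, at 2246 bp.

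The H3K4me3 score at the gene was highest in FOXA2 at 95.1, followed by CEBPD at 93.9, CEBPB at 90.6, CEBPG at 89.6 and CEBPA at 87.4. These 5 lie between percentiles 91.6 and 95.5 of the 13788 genes with an H3K4me3 summit. The summits of CEBPD, CEBPB and CEBPA are also within 1000 bp of a start or boundary of SPIDR, CEBPB-AS1 and CEBPA-DT, described below. FOXA1 stood lower at 51.8 (percentile 47.4), close to the median of 53.4. The best H3K27ac score at the gene ran from 61.3 in CEBPD through 56.4 in FOXA2, 52.4 in CEBPB, 47.3 in CEBPA, 40.3 in FOXA1 and 40.2 in CEBPG to 6.63 in FOXA3. The first 6 lie above the median of 32.9 over 12890 genes, and FOXA3 is at percentile 6.48. With 1 library per mark, neighbours in either order cannot be told apart.

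**Figure D1:**
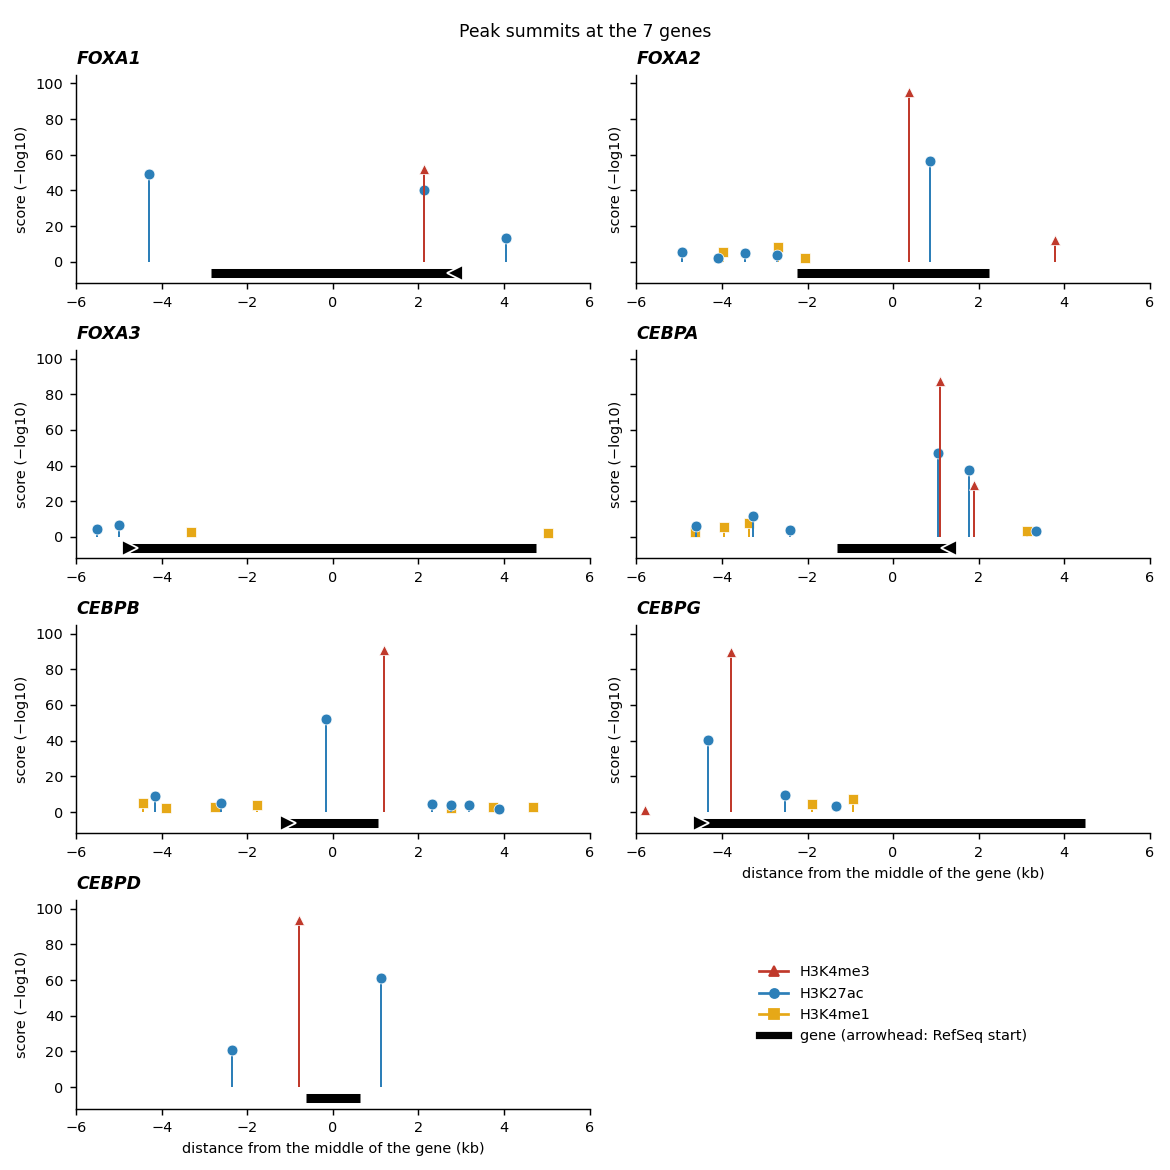
Peak summits of the 3 marks within 6 kb of the middle of each gene, with the score (−log10) on the vertical axis and the distance in the direction of the chromosome on the horizontal axis. Tall H3K4me3 summits of 51.8 to 95.1 stand at 6 genes, and FOXA3 has weak H3K27ac and H3K4me1 summits and no H3K4me3 summit in the range shown. Summits of 86.4 for H3K4me3 and 44.3 for H3K27ac, 1526 and 1360 bp upstream of the FOXA3 start, fall just outside that range.

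FOXA1 (chromosome 14, 37589552 to 37595249), the fork head factor best known from breast, prostate and liver, carried both promoter marks just inside its start. The H3K4me3 summit of 51.8 lay 712 bp and the H3K27ac summit of 40.3 lay 719 bp downstream of the start, 7 bp from each other. A second H3K27ac summit of 49.5 lay 1440 bp beyond the far end of the gene with no H3K4me3 summit closer than 4356 bp. H3K4me1 was absent from the gene, and its nearest summit lay 5834 bp from the start. TTC6, a tetratricopeptide repeat gene on the opposite strand, starts 380 bp from FOXA1 and has H3K27ac of 13.5 at its start but no H3K4me3.

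FOXA2 (chromosome 20, 22580998 to 22585490), which acts early in endoderm and keeps later roles in liver and pancreas, had its strong summits inside the gene. H3K4me3 of 95.1 lay 1870 bp and H3K27ac of 56.4 lay 1371 bp from the higher-coordinate end, 499 bp from each other. The lower-coordinate end carried another set of weak summits. There, H3K27ac of 3.66 lay 478 bp outside the gene, and H3K4me1 of 8.57 and 2.18 lay 435 bp outside and 199 bp inside. The summits listed at the 2 ends thus differed. Above the H3K4me3 summit no H3K4me1 summit was closer than 15562 bp, while below it the nearest was at 2423 bp. None of the lower-end summits reached a score of 10. Past the higher-coordinate end, H3K4me3 of 12.1 lay 1548 bp outside the gene.

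FOXA3 (chromosome 19, 45864326 to 45873797), the FOXA gene most tied to adult liver and gut, had no H3K4me3 summit in the gene or within 1000 bp. Its start had H3K27ac of 6.63 at 262 bp and 4.25 at 784 bp upstream, and H3K4me1 of 2.79 lay 1410 bp downstream. The nearest H3K4me3 summit, of 86.4, lay 1526 bp upstream. That summit stands at the start of SYMPK, a gene of mRNA 3′ end processing on the opposite strand, whose boundary is 1179 bp from the FOXA3 start. SYMPK also had H3K27ac of 44.3, and both H3K27ac summits counted for FOXA3 are within 1000 bp of the SYMPK start too. The marks between the 2 genes cannot be assigned to either.

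CEBPA (chromosome 19, 33299934 to 33302534) carried the pair of promoter marks on both sides of its start. Inside the gene, H3K4me3 of 87.4 lay 201 bp and H3K27ac of 47.3 lay 246 bp from the start. Outside it, H3K27ac of 37.7 lay 465 bp and H3K4me3 of 29.2 lay 584 bp upstream, within CEBPA-DT, a divergent long noncoding RNA (lncRNA) gene that begins 287 bp away. The starts of the 2 genes are too close for the start windows to be told apart. No H3K4me1 summit was closer to the start than 1837 bp.

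CEBPB (chromosome 20, 50190583 to 50192690), an intronless gene whose mRNA yields several protein isoforms, had its H3K4me3 summit at the far end. The summit of 90.6 lay 2246 bp downstream of the start, 139 bp past the end of the gene, while H3K27ac of 52.4 lay 889 bp from the start and inside the gene. H3K4me1 of 4.15 lay 720 bp upstream. The H3K4me3 summit lay 1357 bp downstream of the H3K27ac summit. CEBPB counts as lacking H3K4me3 at its start because no H3K4me3 summit was closer to it than 2246 bp. The antisense lncRNA gene CEBPB-AS1 overlaps CEBPB and starts inside it, 1486 bp from the CEBPB start, within 1000 bp of both summits. ChIP-seq has no strand, so the marks cannot be assigned to either gene.

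CEBPG (chromosome 19, 33373709 to 33382686) had both promoter marks downstream of its start. H3K27ac of 40.2 lay 167 bp and H3K4me3 of 89.6 lay 698 bp downstream of the start. Weaker H3K27ac summits of 9.46 and 3.53 followed at 1958 and 3145 bp, with H3K4me1 of 4.43 and 7.12 at 2594 and 3559 bp. From the start into the gene the order was thus H3K27ac, H3K4me3, then weak H3K27ac with H3K4me1.

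CEBPD (chromosome 8, 47736913 to 47738164), the shortest of the 7 genes at 1252 bp, had H3K4me3 just outside one end and H3K27ac on both sides of it. H3K4me3 of 93.9 lay 166 bp outside the lower-coordinate end. The flanking H3K27ac summits were 21.1 at 1562 bp below and 61.3 at 1904 bp above the H3K4me3 summit, the second of them 487 bp outside the other end of the gene. SPIDR, a DNA repair gene, has a boundary 607 bp from CEBPD, and the H3K4me3 summit is within 1000 bp of that boundary too. No strand was available for CEBPD, so this summit is not known to be at its start and cannot be assigned to either gene. The nearest H3K4me1 summit to a gene end was 27646 bp away.

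Around the best H3K4me3 summit of each gene, H3K27ac lay closer than H3K4me1. Of the 4608 H3K4me3 summits with the highest scores in the whole list (at least 62.9, a score that FOXA1 does not reach), 89.4% had H3K27ac and 3.93% had H3K4me1 within 1000 bp. In the 6 genes the nearest H3K27ac summit lay at 7 bp in FOXA1, 45 bp in CEBPA, 499 bp in FOXA2, 531 bp in CEBPG, 1116 bp in CEBPB and 1562 bp in CEBPD, against a median of 337 bp. The nearest H3K4me1 summit lay at 1575 bp in CEBPB, 1896 bp in CEBPG, 2038 bp in CEBPA, 2423 bp in FOXA2, 6546 bp in FOXA1 and 29063 bp in CEBPD, against a median of 7190 bp. No H3K4me1 summit was within 1000 bp in any of the 6.

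The windows held very different numbers of summits. CEBPB had the most summits of H3K27ac and H3K4me1, CEBPD the fewest, and FOXA3 the most of H3K4me3. The number of H3K27ac summits was 50 for CEBPB, 23 for CEBPA, 22 for CEBPG, 18 for FOXA3, 17 for FOXA2, 10 for FOXA1 and 3 for CEBPD. All protein-coding genes with the same flanks had a median of 9 and a 95th percentile of 32, so CEBPB alone passed the latter. The number of H3K4me1 summits was 63 for CEBPB, 31 for FOXA2, 29 for CEBPA, 28 for CEBPG, 17 for FOXA3, 5 for FOXA1 and 4 for CEBPD, against a median of 7 and a 95th percentile of 44. H3K4me3 summits numbered 17 for FOXA3, 14 for CEBPB, 8 each for FOXA1 and FOXA2, 7 each for CEBPA and CEBPG and 4 for CEBPD, against a median of 7. Among the 5658 protein-coding genes of at most 10000 bp, whose windows are of similar length, the median was 8 H3K27ac and 6 H3K4me1 summits. In that group the H3K27ac count of CEBPB was at percentile 99.9, CEBPA at 88.1, FOXA1 at 59.9 and CEBPD at 31.2.

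**Figure D2:**
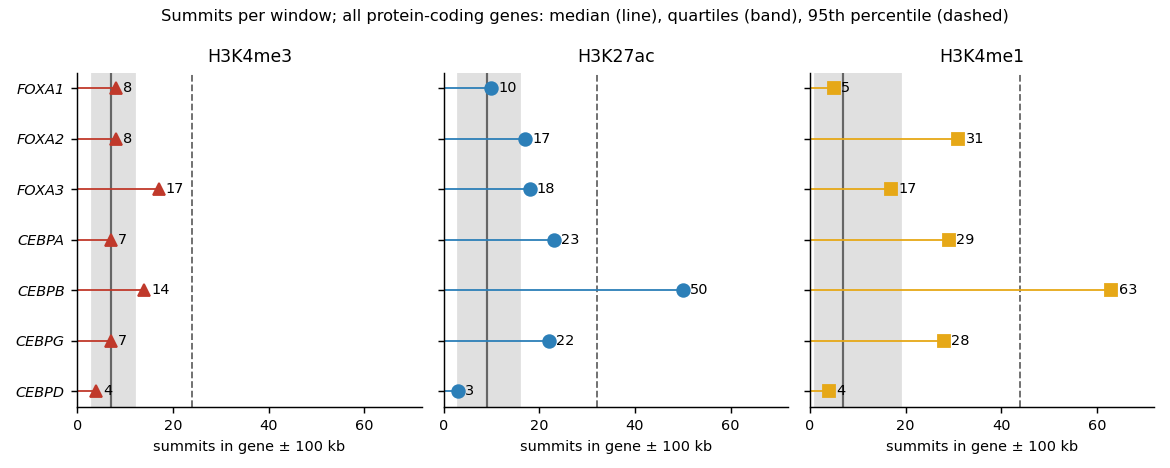
Number of summits of each mark in the gene plus 100 kb on each side, 1 point per gene. The line, band and dashed line give the median, quartiles and 95th percentile over all protein-coding genes; CEBPB, with 50 H3K27ac and 63 H3K4me1 summits, lies past the dashed line for both marks.

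**Figure D3:**
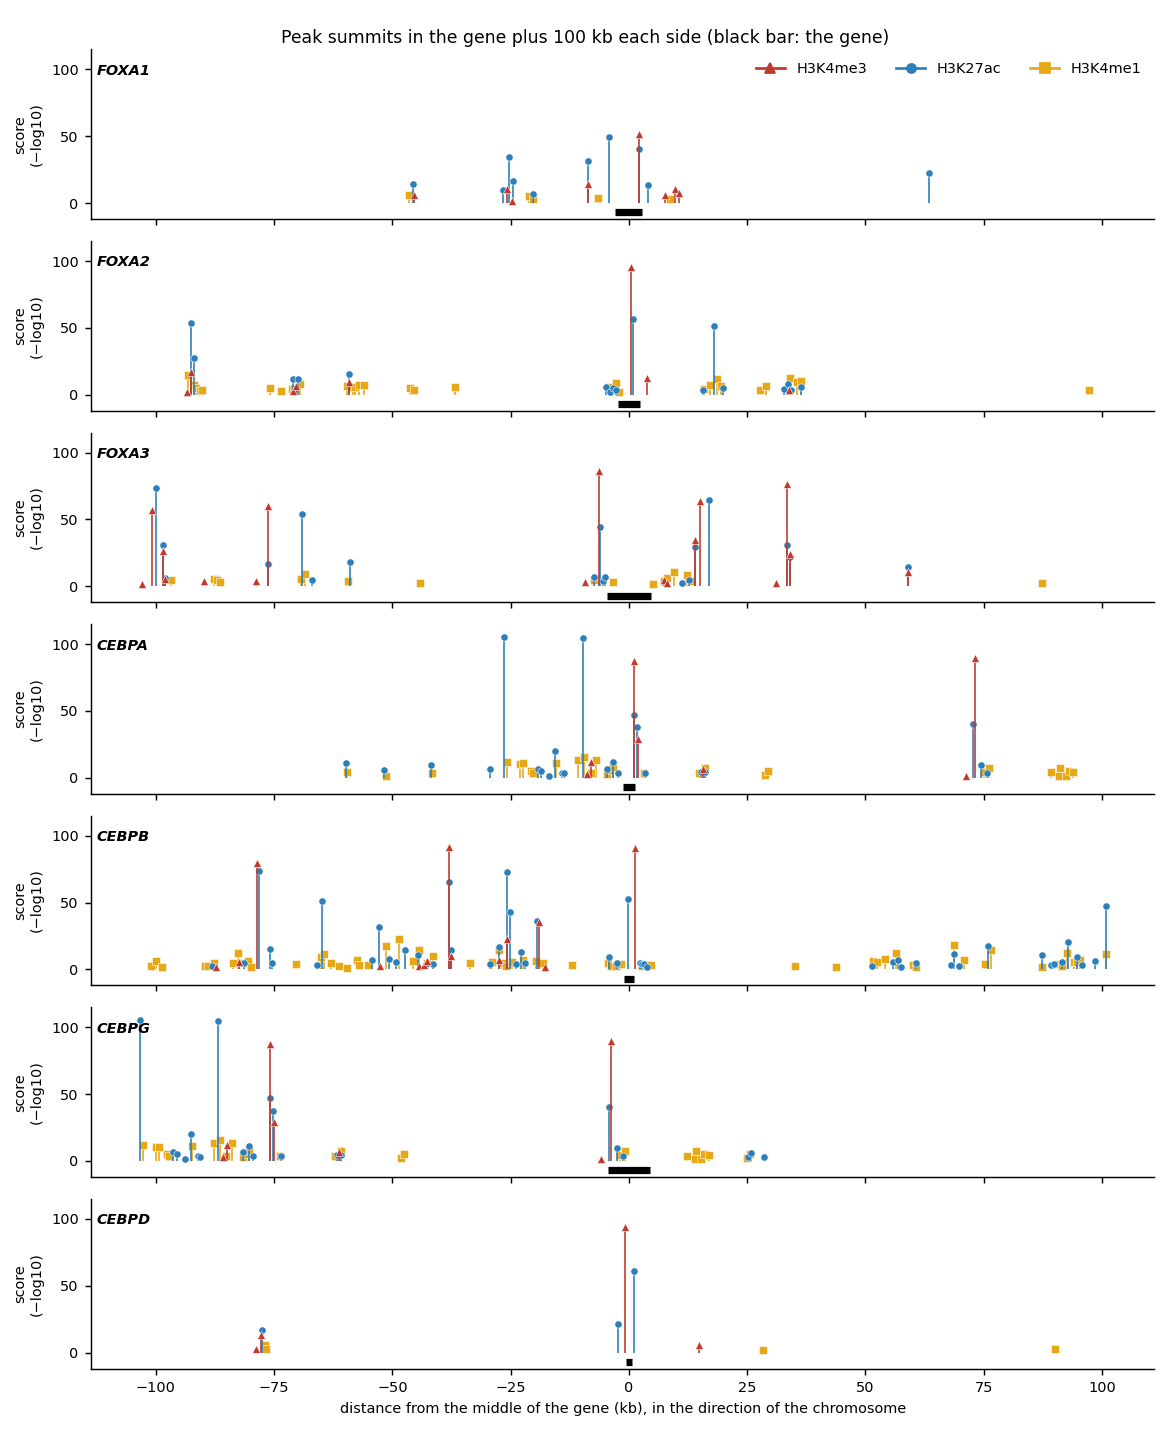
Position and score of every summit in the 7 windows, with the distance from the middle of the gene in kb and the score as −log10. The 2 H3K27ac summits of 105.4 and 104.7 below CEBPA are the tallest H3K27ac summits in any of the windows and appear again at the left edge of the CEBPG window.

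A summit was called distal when no gene boundary, of coding or noncoding genes alike, was within 2500 bp. The windows held 63 distal H3K27ac summits, of which 45 (71.4%, 95% Wilson interval 59.3 to 81.1, for counting error only) had H3K4me1 within 1000 bp, the pairing textbooks use for active enhancers. Over the whole list the share was 65.9%, inside that interval. H3K4me3 was within 1000 bp of 21 (33.3%, 22.9 to 45.6), against 29%, and neither mark was near 11 (17.5%), against 23.8%. Scores were 10 or higher for 24 (38.1%, 27.1 to 50.4), against 35.5%. All 4 shares of the whole list are close to those of the 7 windows. Of 107 distal H3K4me1 summits in the windows 57 had H3K27ac within 1000 bp (53.3%, 43.9 to 62.4), against 49.6%.

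Between the genes the make-up of the distal sites differed, in small numbers. CEBPB had H3K4me1 beside 21 of 24 distal H3K27ac summits (87.5%, 69.0 to 95.7) and FOXA2 beside 9 of 10 (90%, 59.6 to 98.2). FOXA1 had it beside 2 of 7 (28.6%, 8.22 to 64.1) and had H3K4me3 beside 5 of 7 (71.4%, 35.9 to 91.8). CEBPA had H3K4me1 beside 10 of 16 and neither mark beside 6 of 16. FOXA3 had H3K4me1 beside 2 of 5, and CEBPD had a single distal H3K27ac summit, with both other marks. Over the whole list the shares were 65.9% with H3K4me1, 29% with H3K4me3 and 23.8% with neither. Summits in a window are no replicates of each other, so the intervals do not measure the spread between genes. The differences between genes were not tested.

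**Figure D4:**
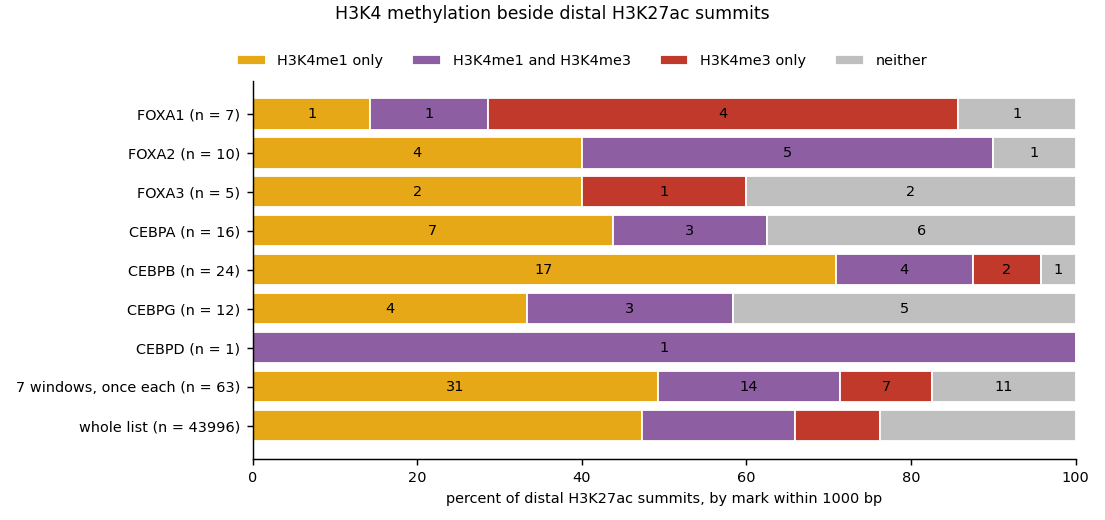
Share of the distal H3K27ac summits of each window with H3K4me1, H3K4me3, both or neither within 1000 bp, with the number of summits in each segment. H3K4me1 accompanies 21 of 24 summits at CEBPB and 2 of 7 at FOXA1, and the 7 windows together resemble the whole list.

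The strongest distal acetylation lay downstream of CEBPA. H3K27ac summits of 105.4 (chromosome 19, position 33274768) and 104.7 (position 33291425) lay 27766 and 11109 bp downstream of the CEBPA start, and each was at percentile 99.2 of the whole H3K27ac list. Each had H3K4me1 close by, of 12.02 at 616 bp and of 15.8 at 379 bp. Both exceed the H3K27ac scores at the CEBPA start itself, 47.3 and 37.7. They belong to a run of 10 distal H3K27ac summits with gaps of at most 12000 bp, spanning 24769 bp from 5908 to 30677 bp downstream. Of the 15727 such runs on the chromosomes used, 3.74% had as many summits. CEBPA is the protein-coding gene nearest to 12 of the 16 distal H3K27ac summits of its window. The distal H3K27ac summit nearest to the start, of 6.33, lay 5908 bp away with H3K4me1 at 21 bp.

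The same sites fall at 82284 and 98941 bp upstream of CEBPG and enter its window from the far side. CEBPG is the nearest protein-coding gene to 1 of the 12 distal H3K27ac summits in its window, the summit of 3.53 inside the gene. The nearest H3K27ac summit upstream of the CEBPG start lay 56382 bp away. On its other side lies PEPD, a dipeptidase gene, where H3K27ac summits of 2.95 to 5.60 lay 29648 to 33117 bp from the CEBPG start. Proximity in the genome does not show which promoter a distal site acts on.

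CEBPB had distal sites on both sides, many of them inside other genes. H3K27ac of 73.3 lay 77195 bp upstream within UBE2V1, a ubiquitin-conjugating enzyme variant gene, with H3K4me3 of 79.5 at 380 bp. It lies 2569 bp from the nearest gene boundary, just past the 2500 bp that make a summit distal. H3K27ac of 51.2 lay 63931 bp upstream within PEDS1, which encodes the plasmalogen desaturase, with H3K4me1 at 52 bp. It belongs to a run of 8 distal summits that spans 24557 bp of PEDS1, and 6.16% of all runs had as many. Downstream, a run of 11 summits began 92645 bp from the start and reached past the window to 113125 bp, with a best score of 20.1; 2.91% of runs had as many. CEBPB was the nearest protein-coding gene to 11 of the 24 distal H3K27ac summits. The distal H3K27ac summits nearest to the start were 9.14 at 3096 bp upstream, with H3K4me1 at 252 bp, and 1.46 at 4935 bp downstream. No H3K27ac summit lay between 4935 and 52500 bp downstream.

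FOXA2 is the only one of the 7 with no other protein-coding gene in its window, and all 10 distal H3K27ac summits had it as the nearest. H3K27ac of 53.4 lay 90257 bp below the lower-coordinate end, 1 bp from H3K4me3 of 17.2 and 570 bp from H3K4me1. H3K27ac of 51.1 lay 15836 bp above the higher-coordinate end, within the lncRNA gene LNCNEF, with H3K4me1 of 11.99 at 564 bp and the nearest H3K4me3 summit at 14288 bp. The distal H3K27ac summit nearest to the gene, of 3.23, lay 13318 bp above it. These 2 strong sites on opposite sides scored about as high as the H3K27ac summit in the gene, at 56.4.

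FOXA1 had a run of 5 distal H3K27ac summits between 11538 and 29403 bp downstream of its start, most of them with H3K4me3 close by. The strongest, of 34.4 at 28265 bp, had H3K4me3 at 266 bp and the nearest H3K4me1 at 4394 bp. The second, of 31.5 at 11538 bp, was also the nearest to the start, with H3K4me3 of 14.2 at 45 bp and H3K4me1 at 2117 bp. The H3K4me3 summits beside the run scored 1.83 to 14.2, far under the 51.8 of the FOXA1 start. Farther out, H3K27ac of 22.4 lay 60483 bp upstream inside TTC6, with the nearest H3K4me1 at 43726 bp and H3K4me3 at 52666 bp. FOXA1 was the nearest protein-coding gene to 2 of the 7 distal H3K27ac summits, those of 31.5 and 6.51 in the run. The summits of 34.4, 16.7 and 9.67 in the run had MIPOL1 as the nearest. The one of 34.4 lay 14623 bp from the MIPOL1 boundary.

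FOXA3 lies among 10 other protein-coding genes, the most of the 7, and most summits in its window stand at those genes. Of the 18 H3K27ac summits 5 were distal, 2 were those counted at FOXA3, and the other 11 were within 2500 bp of a boundary of another gene. Of the 17 H3K4me3 summits none was at FOXA3, while the starts of SYMPK, MYPOP and DMWD had scores of 86.4, 76.2 and 60.0. SIX5, a homeobox gene, and IRF2BP1, a transcriptional repressor gene, had the highest H3K27ac start scores in the window, 73.8 and 64.2. The strongest distal sites, H3K27ac of 53.9 and 18.05, lay 64424 and 54315 bp upstream within RSPH6A, a radial spoke gene. FOXA3 was the nearest protein-coding gene to none of the 5 distal H3K27ac summits; the closest, of 2.55, lay 15868 bp downstream.

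CEBPD had the emptiest window around the strong summits described above. Apart from the 2 H3K27ac summits flanking the gene, 1 lay in the window, of 16.7 at 76915 bp below the gene within SPIDR, with H3K4me3 at 150 bp and H3K4me1 at 548 bp. PRKDC, the DNA-dependent protein kinase gene, has a boundary 34947 bp above CEBPD and reaches beyond the window. Its best H3K4me3 score, 88.1, lies at a boundary outside the 100000 bp flank.

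To set the 7 genes beside related ones, the best score within 2500 bp of the start was ranked over all protein-coding genes for each mark. The distance between these 3 percentile ranks was then taken to 94 other fork head, bZIP and liver factor genes, over 3 libraries of 1 cell line. CEBPA was most like CREB3, a bZIP factor of the endoplasmic reticulum, at a distance of 0.658 percentile points, with H3K4me3 of 87.4 against 87.7 and H3K27ac of 47.3 against 47.7. CEBPB was next to CEBPA (3.76) and CREB3 (4.03). FOXA1 was most like CREB1 (2.86) and FOXD2 (4.92), and FOXA2 most like FOXK2 (2.17) and FOSL1 (7.43). For FOXA2 both ends were taken, and its H3K4me3 and H3K27ac values lie within 2500 bp of the higher-coordinate end only. Its H3K4me1 value lies within 2500 bp of the lower-coordinate end only, so the 3 ranks do not describe the same end. FOXA3 fell beside CREB3 (2.79) and CEBPA (3.18), but at this width its H3K4me3 and H3K27ac values are those of the SYMPK start. CEBPG was nearest to FOXH1 (6.001) and CEBPD (11.7). All 3 had rank 0 for H3K4me1, and the nearest H3K4me1 summit of CEBPG lay just outside this width, at 2594 bp. FOXH1 itself had a best H3K4me3 score of 4.26 and no H3K27ac summit at the gene, so its values at this width come from summits outside it. The H3K4me3 value of FOXD2 (50.3, against 35.3 at the gene) and the H3K4me1 value of FOSL1 (5.74, against 4.58) also come from outside the gene. CEBPD was nearest to ATF5 (6.95) and FOSL2 (7.12).

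Related genes were counted by the same rule at the start, without a test. Of 41 other fork head genes, 21 had H3K4me3 (all genes: 55.4%) and 14 had H3K27ac (52.5%) at the start, and 11 had both (46.5%). Their median H3K4me3 score was 15.3 against 53.0 over all genes. FOXO1 had 31.05 for H3K4me3 and 10.8 for H3K27ac, and FOXO3, like FOXO1 a target of insulin signalling, had 64.4 and 17.99. FOXP3 had no summit of any mark at the gene, and FOXP4 had H3K27ac of 19.3 at the start and H3K4me3 of 44.2 at 1177 bp. Of 27 bZIP partners and relatives 19 had both marks at the start, against the same 46.5%. DDIT3, a stress-induced partner of C/EBP proteins, had 89.7 and 77.8, and ATF2 had 58.1 and 63.9. CEBPE, the myeloid C/EBP gene, had no summit at the gene, and ATF3 had a best H3K4me3 score of 47.9 in the gene, with the nearest H3K4me3 summit 1626 bp from the start.

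Of 12 regulators of C/EBP proteins 11 had both marks at the start, against 46.5% of all genes. TRIB1 and TRIB3, pseudokinase genes, had H3K4me3 of 112 and 82.5 and H3K27ac of 100.5 and 49.5, whereas TRIB2 had no summit. All 12 cofactor genes had both marks in the gene or within 1000 bp, against 61.2% of all genes, and 6 had them at the start. TLE1, a corepressor gene, and KMT2C had H3K4me3 of 27.8 and 56.5 at the start, while TLE3 and KMT2D had best scores of 79.1 and 91.2 in the gene and their nearest H3K4me3 summits 1318 and 1309 bp from the start. Of 20 liver factor genes 11 had both marks at the start (all genes: 46.5%), including HNF4A, with 71.9 for H3K4me3 and 57.6 for H3K27ac. GATA4, a partner of FOXA proteins in endoderm, had no summit at the start and its nearest H3K4me3 summit at 9922 bp, and TBX3 had H3K27ac of 84.0 with H3K4me3 at 1419 bp.

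Of 26 liver target genes 4 had both marks at the start (all genes: 46.5%) and 13 had no summit of any mark at the gene (all genes: 5127 of 19974). TF, the transferrin gene, had 85.8 for H3K4me3 and 33.6 for H3K27ac, and TAT, a tyrosine-degrading enzyme gene, had 24.2 and 75.5. ALB had its nearest H3K27ac summit 28262 bp and TTR 77904 bp from the start. H3K4me1 was at the start of 8 of the 26, against 6.93% of all genes.

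**Figure D5:**
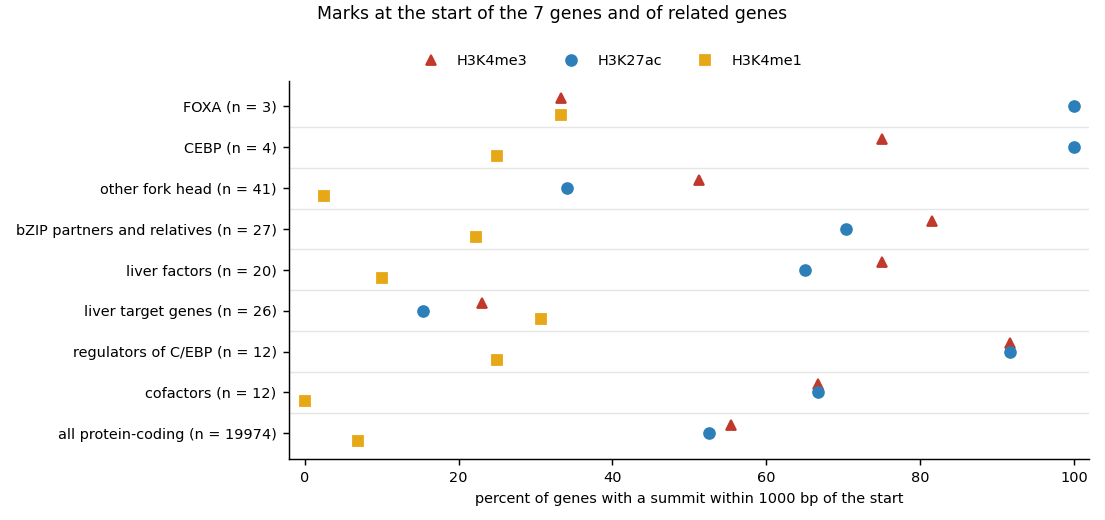
Percent of genes with a summit of each mark within 1000 bp of the start, for the FOXA and CEBP genes, 6 related lists and all protein-coding genes, with the number of genes in each list. H3K27ac was at the start of 4 of 26 liver target genes and of 11 of 12 regulators of C/EBP, against 52.5% of all protein-coding genes.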

How the data were processed

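H3K4me3, H3K27ac and H3K4me1 were mapped by ChIP-seq in MHCC97L cells, with 1 library each. The authors deposited 1 list of summits per mark. Bowtie, Picard, deepTools and MACS2 on hg38 are named per the submitters' processing notes; their versions and settings, and how the input served, are not given in these labels. The deposited scores are −log10 values (p-value or q-value is not given), at least 1.30, and rise with read depth, which is unknown.

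Summits on chromosomes 1 to 22 and X (leaving out 273 H3K27ac, 61 H3K4me1 and 185 H3K4me3 summits) were joined to RefSeq genes (GRCh38.p14, same coordinates as hg38), giving 19974 protein-coding genes and 59098 of all types. The strand came from the promoter table, which covered 15812 coding genes; the others, FOXA2 and CEBPD included, had both ends taken as starts. Start windows were 1000 bp, flanks 100000 bp, distal sites over 2500 bp from every boundary, and co-location 1000 bp. The named genes were the 7 members, neighbours whose start holds a counted summit, the first 2 genes of each list with both marks and without H3K4me3, the 2 most alike genes, and per member the 2 strongest and the nearest distal H3K27ac summit. The members and lists were chosen with earlier results of these data known. Other sites and genes were named after their values were seen. Not every gene that this rule names is reported here. The planned protein comparison was not run. Python 3.11.15, pandas 2.3.3, numpy 2.4.6 and scipy 1.17.1 were used, and the counting was tested on simulated summits.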

Additional observations from a re-analysis of the deposited data

How the results depend on the processing

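The start window decided the promoter counts, and the score minimum, flank and co-location distance decided the others. With 500 bp around the start, H3K4me3 was found in 2, H3K4me1 in 1 and the H3K4me3 and H3K27ac pair in 1 of the 7 genes; with 2500 bp the numbers were 7, 4 and 7, the FOXA3 pair then being the summits at SYMPK. Among summits scoring 10 or more, H3K4me1 was at the start of 0 of 7 genes, and H3K4me3 and the pair stayed at 4 and 3. Either boundary in place of the start, or any RefSeq start (chosen after seeing the data), kept all 4 counts within 1.5 times. The H3K27ac count was 5 to 7 throughout.

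Flanks of 50000 bp left 80 H3K27ac, 83 H3K4me1 and 36 distal H3K27ac summits. Flanks of 200000 bp gave 103 H3K4me3, 228 H3K27ac, 306 H3K4me1 and 129 distal H3K27ac summits. A minimum score of 10 left 27, 56, 23 and 24 in that order, since fewer summits remain. With a distal distance of 5000 bp 40 were left. The share of distal H3K27ac summits with H3K4me1 was 52.4% at a co-location distance of 500 bp, 87.3% at 2000 bp and 37.5% with the minimum score of 10; in the other 4 settings it was 65.0% to 76.0%. Of the 21 counts per gene and mark, 13 moved by over 1.5 times with either other flank and 19 with the score minimum. At 500 bp FOXA1 lost both promoter marks, CEBPG lost H3K4me3 and CEBPB lost H3K27ac. Depth is unknown, so summits missing from a list are not shown to be absent marks.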

Other observations

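The lncRNA genes in the windows were marked unevenly. Near CEBPB, LINC01275 had H3K27ac of 73.0 and H3K4me3 of 23.03 at the same position, 24632 bp upstream of the CEBPB start, and LINC01273 had 36.3 and 35.6. PELATON, on the other side, had H3K27ac of 17.1 and H3K4me1 of 14.2 at a boundary and no H3K4me3 summit. Near FOXA2, LINC00261 had H3K27ac of at most 5.72, H3K4me1 of 5.56 and no H3K4me3, and LINC01747 had a single H3K4me1 summit of 3.78. LOC105372564, 56808 bp below FOXA2, had all 3 marks at a boundary, with 9.29 for H3K4me3, 15.3 for H3K27ac and 6.10 for H3K4me1.

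The distal H3K4me1 summits with H3K27ac within 1000 bp were 25 of 42 at CEBPB, 13 of 27 at CEBPA and 11 of 21 at FOXA2. They were 10 of 24 at CEBPG, 3 of 8 at FOXA3, 3 of 5 at FOXA1 and 2 of 4 at CEBPD. The share over the whole list, 49.6%, lies inside the 95% Wilson interval of every gene.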
